A study of Mus musculus with 7 samples.

Results

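The 9 genes described here, Insm1, Insm2, Scrt1, Scrt2, Gfi1, Gfi1b, Snai1, Snai2 and Snai3, encode zinc finger repressors of the SNAG type. They were listed by name, by a rule that sets no measured value but with earlier results of these data known, and all 9 were found among 21887 protein-coding genes of chromosomes 1 to 19, X and Y. The study mapped 2 modifications of lysine 27 of histone H3 by chromatin immunoprecipitation and sequencing (ChIP-seq). H3K27me3 is laid down by Polycomb Repressive Complex 2 and goes with gene silencing, and H3K27ac goes with active promoters and enhancers. All libraries came from globose basal cells, the cycling progenitors of the olfactory epithelium. Adult wild-type mice had received methimazole, a toxicant that destroys this epithelium, 7 to 10 days earlier. Each replicate pooled 3 mice, and the cells were enriched on beads through the surface receptor c-Kit, so any other cell bearing c-Kit could be held too. There were 2 H3K27me3 libraries, 2 H3K27ac libraries and 3 inputs, and no untreated or sham group. The comparison the design allows is between the marks, gene by gene.

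A SNAG domain is a short stretch at the protein's first residues that recruits the histone demethylase LSD1 (gene Kdm1a) with its CoREST and histone deacetylase partners, so that the zinc fingers bring a repressive complex to DNA. Insm1 acts in neurogenic progenitors, in the olfactory epithelium too, where it moves dividing progenitors towards terminal neurogenic divisions. Scrt1 and Scrt2 are the neural members of the Snail superfamily, Gfi1 and Gfi1b govern blood lineages, with Gfi1 also needed in hair cells of the inner ear, and Snai1 and Snai2 drive the epithelial to mesenchymal transition. Polycomb marking of such regulators in cells of other lineages is well known.

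The upstream sequences of the members in the RefSeq promoter table (GRCm38.p6) are shown first, because they differ both in their content of CpG dinucleotides, with which Polycomb marking is often associated, and in the marks that covered them. Each run is the 250 bases before an annotated transcript start, on the gene's own strand, 5′ to 3′, with every CpG in capitals. Of the 2 starts listed for Gfi1 the one at the gene's end is shown. Insm1, Scrt1, Scrt2, Snai2 and Snai3 had no entry.
Insm2, chr12:55598667-55598916, plus strand: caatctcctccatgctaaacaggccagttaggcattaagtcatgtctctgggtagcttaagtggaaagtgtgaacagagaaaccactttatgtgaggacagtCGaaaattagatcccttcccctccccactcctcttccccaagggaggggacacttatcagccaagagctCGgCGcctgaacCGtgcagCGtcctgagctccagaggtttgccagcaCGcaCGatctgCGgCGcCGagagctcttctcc
Gfi1, chr5:107725806-107726055, minus strand: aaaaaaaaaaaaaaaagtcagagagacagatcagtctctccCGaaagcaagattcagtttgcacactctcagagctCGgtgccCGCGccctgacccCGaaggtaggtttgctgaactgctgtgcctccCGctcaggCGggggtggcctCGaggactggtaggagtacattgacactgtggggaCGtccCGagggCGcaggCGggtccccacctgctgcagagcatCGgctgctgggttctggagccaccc
Gfi1b, chr2:28621983-28622232, minus strand: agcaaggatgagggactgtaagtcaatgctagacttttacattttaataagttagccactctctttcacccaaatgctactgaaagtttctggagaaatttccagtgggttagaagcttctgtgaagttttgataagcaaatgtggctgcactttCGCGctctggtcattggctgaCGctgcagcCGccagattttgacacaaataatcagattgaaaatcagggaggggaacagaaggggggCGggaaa
Snai1, chr2:167537945-167538194, plus strand: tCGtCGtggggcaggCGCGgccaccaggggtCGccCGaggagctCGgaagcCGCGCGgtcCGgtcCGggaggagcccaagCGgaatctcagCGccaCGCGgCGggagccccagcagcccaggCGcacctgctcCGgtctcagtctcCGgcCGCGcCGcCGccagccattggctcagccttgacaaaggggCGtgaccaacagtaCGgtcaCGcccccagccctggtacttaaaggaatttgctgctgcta

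Snai1 held 27 CpGs in these 250 bases, Gfi1 13, Insm2 10 and Gfi1b 5. With the 50 bases after the start included, the Snai1 promoter had 34 CpGs, more than 89.8% of the 21263 promoter entries of protein-coding genes, whose median was 13, and the Gfi1b promoter had 7, more than 35.7% of them. Both H3K27me3 libraries covered all 300 bases at Snai1, Gfi1 and Gfi1b, and 86.0% and 99.0% of them at Insm2. H3K27ac covered the Snai1 promoter in full in both libraries and the Gfi1 promoter in replicate 1 only, and it did not reach the Insm2 or Gfi1b promoter. Snai1 was thus the most CpG-rich of these 4 and the one under all 4 libraries. For comparison, H3K27ac lay on 89.5% of the 10137 promoter entries with an observed to expected CpG ratio of at least 0.6 and on 28.3% of the other 11126, while H3K27me3 lay on 19.9% and 16.3%. The ratio was 0.93 at Snai1, 0.66 at Insm2, 0.64 at this Gfi1 start and 0.49 at Gfi1b. These shares describe promoters across the genome, and no part of CpG content in the members' marks was tested.

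Binding motifs of the proteins themselves were looked for in the same entries on both strands. The E2-box CAGGTG, to which Snail proteins bind, occurred once each in the promoters of Snai1 and Gfi1 and in 19.7% of all promoter entries. The letters AAATCA, part of the Gfi motif, occurred once in Gfi1b and in 12.4% of entries. The E-box CAGCTG, bound by proneural factors, was in none of the members' entries and in 15.6% of all. The sites are printed with 10 bases on each side and the motif in capitals. A match of letters is a description and does not show binding.
Snai1, chr2:167538059-167538084: agcccaggcgCACCTGctccggtctc
Gfi1, chr5:107725832-107725857: ggcgggtcccCACCTGctgcagagca
Gfi1b, chr2:28622001-28622026: atcagattgaAAATCAgggaggggaa

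The values that follow are the authors' peaks. Peaks were called in each library separately, with a fold enrichment over background averaged along each peak and a −log10 q whose smallest value was close to 1. The 4 lists held 64279 to 95749 peaks with a median fold enrichment of 3.21 to 3.61, and H3K27me3 had fewer strong peaks: 2.34% and 5.89% reached a −log10 q of 5, against 18.8% and 31.1% of H3K27ac peaks. Depth is not known, so a gene with no peak had none detectable at this threshold. Carrying a mark means here that both of its libraries had a peak within 1 kb of either annotated end of the gene, by 1 bp or more, since the gene table gives no strand. Exons and introns were not used here. With 2 libraries against 2 the smallest p of an exact two-sided permutation test is 0.333, so no test between the marks is given, and libraries are compared by whether their values overlap. Each replicate is taken to be a pool of its own.

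All 9 members carried H3K27me3 at a gene end, against 28.7% of protein-coding genes. H3K27ac was carried by 6 of 9, against 60.8%, and all 6 of these, Insm1, Scrt1, Gfi1, Snai1, Snai2 and Snai3, therefore carried both marks, against 17.5% of genes. At a −log10 q of 2 or more H3K27me3 was left at 7 of 9, without Snai1 and Snai3. No share of all genes is given for the 7. Restricted to peaks with a −log10 q of 5 or more, H3K27me3 was at 5 of 9 members (Insm1, Insm2, Scrt1, Scrt2 and Gfi1; 4.58% of genes), H3K27ac at 2 (Insm1 and Scrt1; 45.6%) and both marks at the same 2 (0.507%). Snai1, Snai2 and Snai3 reached this level for H3K27ac in replicate 1 alone, so that without H3K27ac replicate 2 the count was 5. Gfi1b reached it for H3K27me3 in replicate 1 alone (5.57, against 2.78 in replicate 2), so that without H3K27me3 replicate 2 the count was 6. The 45.6% and 4.58% are for both libraries, and no share of all genes in replicate 1 alone is given for these counts. Over the gene body and 10 kb on each side, H3K27me3 was found at 9 of 9 members (53.8% of genes), H3K27ac at 8 (72.1%) and both at 8 (43.6%). The members are short genes of 3024 to 14274 bp (median 5927 bp, against 17169 bp for all). Among the 6387 genes in that length range the shares were 54.8%, 71.9% and 43.4%. At the authors' threshold the H3K27ac counts of the members, 6 and 8 of 9, were near their backgrounds and are not read as a feature of the group.

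**Figure D1:**
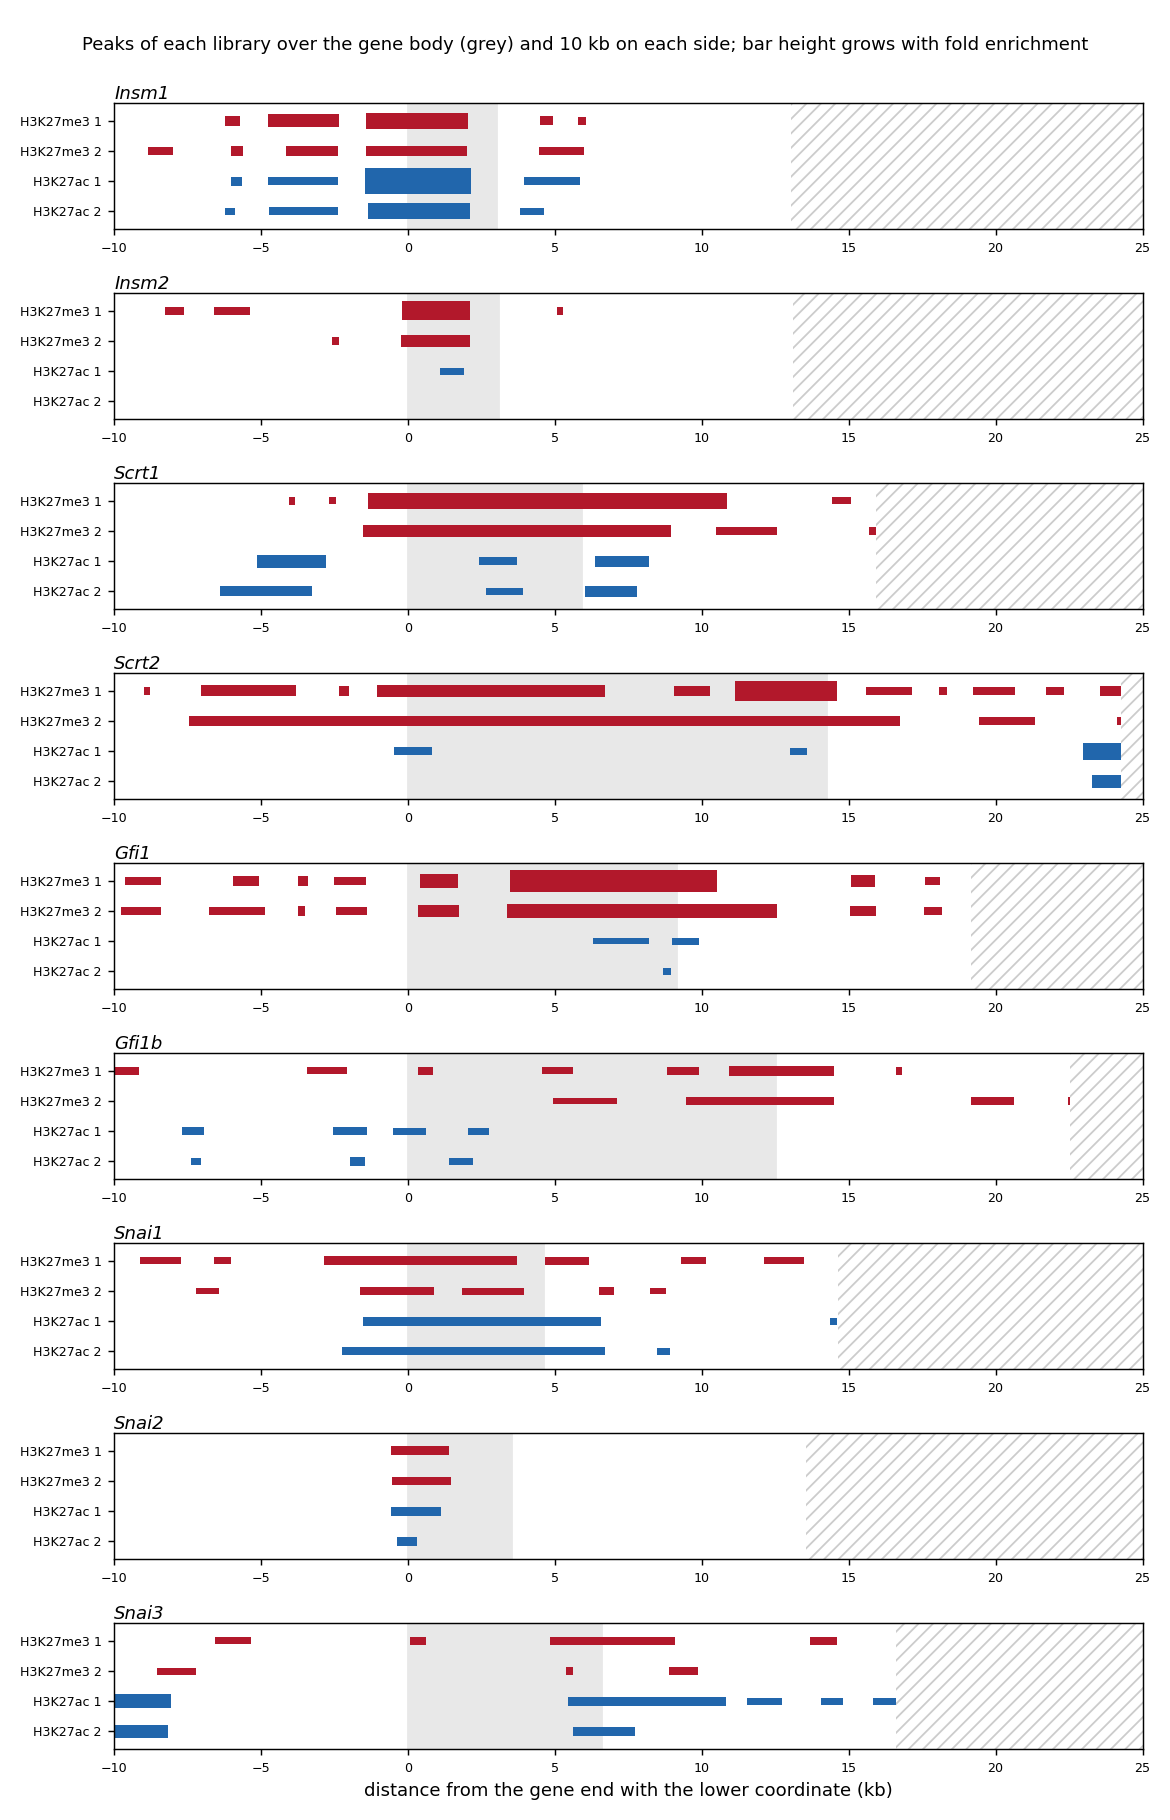
Peaks of the 4 libraries (rows; the number after the mark is the replicate) over each member's gene body (grey band) and 10 kb on each side, as distance in kb from the gene end with the lower coordinate; bars span a peak, a taller bar has a higher fold enrichment, and hatching lies outside the window. Insm1 has the same 3 upstream and promoter-side blocks in both marks, Scrt1, Scrt2 and Gfi1 lie under long H3K27me3 peaks, and Snai2 has 1 peak per library.

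The members fell into 2 sets by the strength of H3K27me3. The strongest peak at a gene end had a fold enrichment of 10.3 to 15.7 in replicate 1 and 5.70 to 9.13 in replicate 2 over Insm1, Insm2, Scrt1, Scrt2 and Gfi1. Over Gfi1b, Snai1, Snai2 and Snai3 it was 3.55 to 5.46 in replicate 1 and 3.39 to 4.06 in replicate 2. The sets did not overlap in either library, or when the libraries were pooled. They were drawn after the values were seen and are a description. The median over all genes with such a peak was 3.87 and 3.72, so Snai3 lay below it in both libraries.

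**Figure D2:**
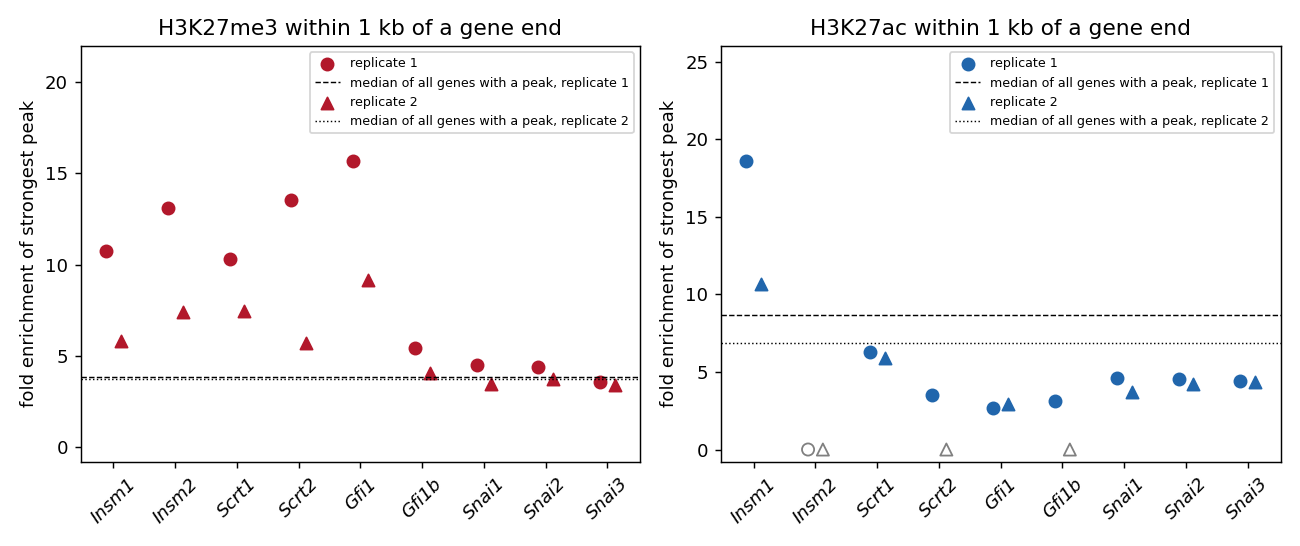
Fold enrichment of the strongest peak within 1 kb of a gene end (vertical axis) for each member, with filled circles for replicate 1 and triangles for replicate 2, hollow grey symbols at 0 where a library had no such peak, and lines at the median of all genes with a peak. In H3K27me3, 5 members stand at 5.70 or more in both libraries, and in H3K27ac Insm1 alone stands above the lines.

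Insm1 (chromosome 2, 146221997 to 146225020) was the one member high in both marks. In replicates 1 and 2 its strongest H3K27me3 peak was enriched 10.8-fold and 5.83-fold and its strongest H3K27ac peak 18.6-fold and 10.7-fold. Ranked among all protein-coding genes, with genes lacking a peak at the bottom, these stood at the 98.6th and 97.0th percentile for H3K27me3 and the 96.3rd and 89.0th for H3K27ac. Both marks sat on the same block: the bases under all 4 libraries ran from -1351 to 2005 bp relative to the lower gene end, a stretch of 3357 bp. A further 1760 bp, from -4147 to -2388 bp, were under all 4 libraries as well, where enrichment was 7.81-fold and 4.89-fold for H3K27me3 and 4.35-fold and 3.38-fold for H3K27ac. The folds of the marks come from different antibodies and inputs and are not on 1 scale. A small block at the neighbour Cfap61, whose end lies within 1 kb of it, was also covered by both marks (125 bp). In replicate 2 the H3K27ac peak of the upstream block had a −log10 q of 1.93 and that at Cfap61 of 1.36, so under a threshold of 2 the 3357 bp at the gene alone were under all 4 libraries.

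In all, 5379 bp of the 23024 bp in the Insm1 window were under both marks in all 4 libraries (23.4%), which made up 87.6% of its H3K27me3 bases and 81.3% of its H3K27ac bases. Of all genes, 99.8% had a smaller share of their window under both marks. Under the threshold of 2 the shared bases made up 14.6% of the window, 54.7% of the H3K27me3 bases and 96.5% of the H3K27ac bases, and 99.6% of genes had a smaller share. ChIP-seq on pooled cells cannot tell whether both marks were on the same alleles or on different cells, and a mark on few cells cannot be told apart from a weak mark on all.

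The genes whose 4 percentiles were nearest to those of Insm1 (Euclidean distance over 4 libraries) were Smg6 at 1.75, an endonuclease of nonsense-mediated decay, Dock3 at 7.04, a guanine nucleotide exchange factor for Rac, and Fezf1 at 8.06, a zinc finger repressor of forebrain and olfactory development. At Fezf1 H3K27me3 was enriched 7.36-fold and 4.46-fold and H3K27ac 16.45-fold and 10.4-fold. The strongest peak of each mark was taken over both gene ends, so likeness in percentiles does not show marks on the same bases. Positions of the peaks at Smg6, Dock3 and Fezf1 were not compared.

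The paralog Insm2 (chromosome 12, 55598917 to 55602018), a relative of Insm1 known from pancreatic islets, carried H3K27me3 alone. Its peak was enriched 13.1-fold and 7.42-fold, which is 1.22 and 1.27 times that of Insm1 in replicates 1 and 2. The peak was compact, at 2329 and 2375 bp, and ran from -208 to 2120 bp over the gene in both libraries. The only H3K27ac peak in the whole Insm2 window was in replicate 1, at a fold enrichment of 2.91 and a −log10 q of 1.59, inside the gene and more than 1 kb from the lower end and the upper end. Insm1 and Insm2 thus had H3K27me3 in each library and differed in H3K27ac, with percentiles of 89.0 or more at Insm1 and no peak at the ends of Insm2.

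Scrt1 (chromosome 15, 76516203 to 76522129) lay whole under H3K27me3. Peaks of 12226 and 10475 bp spanned the gene, at a fold enrichment of 10.3 and 7.44, and 10320 bp were covered in both libraries without a gap. H3K27ac formed islands within this domain. One ran over 1046 bp of the gene, at a fold enrichment of 3.26 and 2.76, and another over 1417 bp beyond the upper gene end, at 6.26 and 5.89. Both islands lay entirely on bases with H3K27me3 in both libraries, 2463 bp in all, which is 23.1% of the H3K27me3 bases of the window. The island in the gene rested on a replicate 2 peak with a −log10 q of 1.10, and under a threshold of 2 the 1417 bp beyond the gene were left, 13.3% of the H3K27me3 bases. A further H3K27ac peak, of 8.15 and 5.35, lay below the gene within 1 kb of an end of Dgat1, an enzyme gene of triglyceride synthesis, outside the long domain.

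Scrt2 (chromosome 2, 152081529 to 152095802) had the widest H3K27me3 of the 9. In replicate 2 a single peak of 24184 bp covered the gene and both flanks at a fold enrichment of 5.70, where replicate 1 had separate peaks, the longest of 7785 bp at 7.03 and the strongest of 3458 bp at 13.6. Because fold enrichment is averaged along a peak, these 2 libraries measured stretches of different length, and the ratio to Scrt1 was 1.31 in replicate 1 and 0.77 in replicate 2. In both libraries 18562 bp were covered, 54.2% of the window and more than in 98.7% of genes. H3K27ac at the gene ends was seen in replicate 1 only, as a peak of 3.52 at the lower end and a peak of 2.88 at the upper end. The H3K27ac that counted for Scrt2 in the wider window lay 8716 and 9011 bp beyond the gene, at 11.5-fold and 8.10-fold, on an end of its neighbour Srxn1, an antioxidant enzyme gene.

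Gfi1 (chromosome 5, 107716655 to 107725805) had the strongest H3K27me3 of the 9 in both libraries, at a fold enrichment of 15.7 and 9.13 (12.4 ± 4.64, SD, n = 2) and the 99.9th percentile in each. The peak measured 7032 and 9188 bp and covered both annotated starts. Around it lay a series of shorter peaks: the window held 8 in each replicate, and 8 stretches were covered in both libraries, 44.5% of the window in sum. Gfi1 counted as carrying H3K27ac, but at 2.67 and 2.91 and a −log10 q of 1.35 and 1.28, near the lowest value listed. The H3K27ac peaks of the 2 replicates did not share a base, so that the bases under H3K27ac in both libraries came to 0.

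Gfi1b (chromosome 2, 28609450 to 28621982) had a weaker and narrower H3K27me3. The fold enrichment of 5.46 and 4.06 was below that of Gfi1, which was 2.87 and 2.25 times as high in replicates 1 and 2, and the ranges of the 2 genes did not overlap. The peak sat on the upper gene end, which is the start of this minus-strand gene, with 3582 bp covered in both libraries. H3K27ac was at the opposite side. Its strongest peak was found in both libraries below the gene, at 4.22 and 4.47 and 1375 and 1466 bp away, and weaker peaks lay farther below (3.24 and 2.88) and inside the gene (2.98 and 2.99). No base of the Gfi1b window was under both marks in all 4 libraries.

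Snai1 (chromosome 2, 167538195 to 167542814) and Insm1 had the largest overlap of the marks at the authors' threshold. At Snai1 the folds were low, at 4.50 and 3.46 for H3K27me3 and 4.60 and 3.71 for H3K27ac, but the H3K27ac peaks were broad, at 8113 and 8961 bp, and spanned the whole gene. H3K27me3 covered 2545 bp around the start and 1874 bp within the gene in both libraries. Of the H3K27me3 bases 93.6% were also under H3K27ac, 4304 bp in all and 17.5% of the window, more than in 99.6% of genes. The H3K27me3 peak of Snai1 in replicate 2 had a −log10 q of 1.90, so under a threshold of 2 the mark was in replicate 1 alone and the shared bases came to 0.

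Snai2 (chromosome 16, 14705852 to 14709395) had exactly 1 peak in each of the 4 libraries, all on the lower gene end. H3K27me3 stood at 4.40 and 3.72 over 1972 and 2018 bp, and the replicates overlapped closely, with 0.96 of their combined bases in common. H3K27ac stood at 4.57 and 4.22 over 1705 and 712 bp, and every base it covered in both libraries, 712 bp, was also under H3K27me3. Snai3 (chromosome 8, 122454204 to 122460809), the least studied of the 3 Snail genes, was at the other extreme. Its H3K27me3 stood at 3.55 and 3.39 with only 0.05 of the combined bases in common, 414 bp in all, and the marks shared 1 bp. The H3K27me3 peak of Snai3 in replicate 2 had a −log10 q of 1.89, so under a threshold of 2 the mark was in replicate 1 alone. H3K27ac at Snai3, at 4.40 and 4.32, lay over the upper gene end in both libraries across 2109 bp, and a stronger peak of 8.74 and 8.54 near the lower edge of the window was at an end of Mvd, a gene of sterol synthesis.

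**Figure D3:**
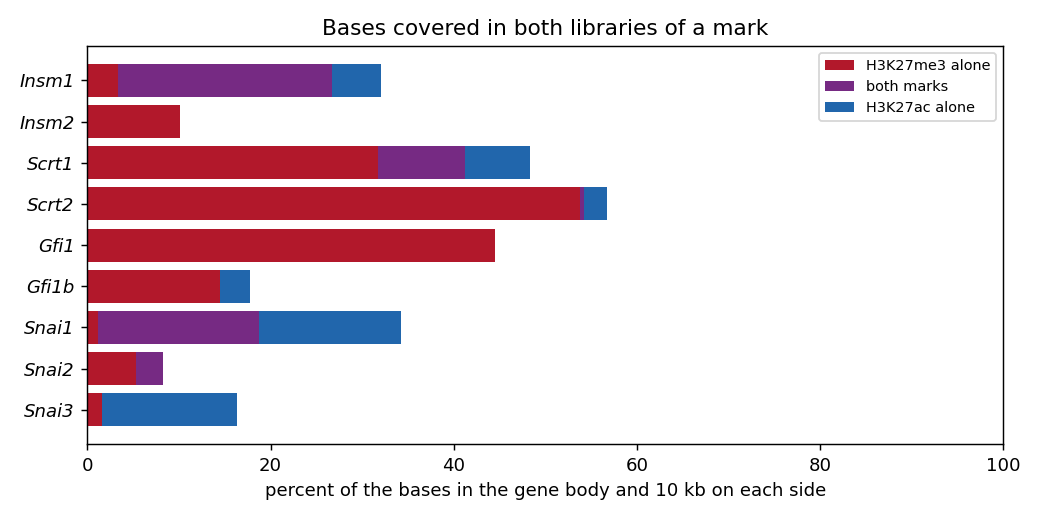
Percent of the bases in each member's gene body and 10 kb on each side (horizontal axis) that both libraries of a mark covered, split into H3K27me3 alone, both marks and H3K27ac alone. At the authors' threshold, bases with both marks make up most of the coverage at Insm1 and the largest piece at Snai1, while Gfi1, Insm2 and Gfi1b have none.

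Across the 9 windows, the median share covered by H3K27me3 in both libraries was 18.7% (range 1.56% at Snai3 to 54.2% at Scrt2), against a median of 0 for all genes, and that of H3K27ac was 3.24% (0 at Insm2 and Gfi1 to 33.0% at Snai1), against 2.91%. The replicates of H3K27me3 shared a median of 0.65 of their combined bases at the members, against 0.29 at all genes with the mark, and the replicates of H3K27ac 0.39 against 0.54. The 0.39 is over all 9 members and includes Insm2, at 0, which had no H3K27ac peak in replicate 2. The 0.54 is over genes with H3K27ac in both libraries only, so these 2 medians are over unlike sets. Of the 8 members with both marks in the window, 6 had bases under all 4 libraries. At Snai3 this was 1 base, and at Scrt2 it was 131 bp at the edge of the window, in peaks at the neighbour Srxn1. Of all 9550 genes with both marks in the window, 54.7% had such bases. Under a threshold of 2, 5 members had both marks in the window and 3 of them (Insm1, Scrt1 and Snai2) shared bases, against 50.6% of the 4687 such genes.

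In the order of the mean percentile, H3K27me3 was highest at Gfi1, followed by Insm2, Scrt1, Scrt2, Insm1, Gfi1b, Snai2, Snai1 and Snai3. The ranges of the 2 libraries did not overlap between Gfi1 and Insm2, between Insm1 and Gfi1b, between Gfi1b and Snai2 and between Snai1 and Snai3, and the other neighbours overlapped. For H3K27ac Insm1 was highest, then Scrt1 (55.0 and 62.2), with Snai2, Snai3 and Snai1 overlapping at 45.5 to 50.9 and Gfi1 lowest at 35.1 and 39.2. Insm2, Scrt2 and Gfi1b lacked a peak at a gene end in at least 1 library. The order by H3K27ac was not the order by H3K27me3: Gfi1 was first in one and last of the 6 in the other.

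**Figure D4:**
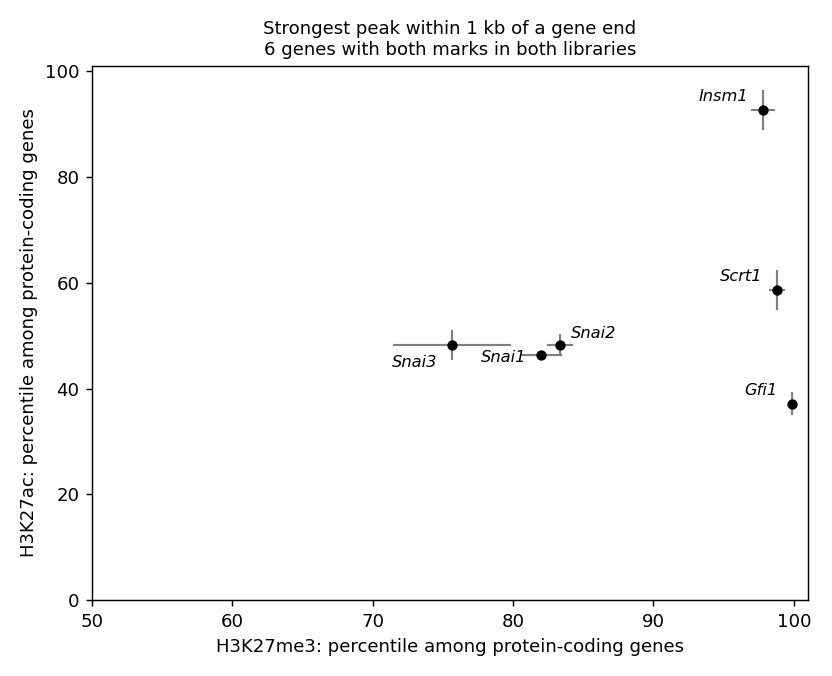
Percentile of the strongest peak within 1 kb of a gene end among all protein-coding genes, for H3K27me3 (horizontal axis, starting at 50) and H3K27ac (vertical axis), for the 6 members with both marks; points are means of the 2 libraries and lines join the libraries. Insm1 lies at the upper right, Gfi1 at the lower right and the Snail genes in between on H3K27ac, at lower H3K27me3.

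The genes of the partners that SNAG proteins recruit were counted as the members were. All 19 listed corepressor genes carried H3K27ac, against 60.8% of genes, and 5 carried H3K27me3, against 28.7%. The H3K27me3 count was near its background and is not read as a feature of the partners. The H3K27me3 count rested on replicate 2: in replicate 1 alone 13 of the 19 had a peak. The share of all genes in replicate 1 alone is not given, so the 13 have no background here. Restricted to a −log10 q of 5 or more, 15 carried H3K27ac (45.6% of genes) and 0 H3K27me3 (4.58%). Without replicate 2 the H3K27me3 count was 2, for which no share is given. Kdm1a, named here after its values were seen because it encodes the demethylase that binds the SNAG domain, stood at 19.5 and 17.5 for H3K27ac and had no H3K27me3 peak at its ends. The partners with H3K27me3 were led by Ajuba, a LIM protein that binds Snail proteins, at 7.90 and 5.03, with H3K27ac at 3.79 and 4.07. Hmg20b and Gse1, of the LSD1 and CoREST complex, had H3K27me3 at 3.41 and 2.77 and at 5.85 and 3.36, and H3K27ac at 7.93 and 6.50 and at 4.05 and 4.43. The corepressor Ctbp2 stood at 4.47 and 3.58 for H3K27me3 and 16.02 and 9.86 for H3K27ac.

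Genes on either side of the epithelial to mesenchymal transition were compared with the Snail members. Of 10 epithelial genes that Snail proteins repress, 9 carried H3K27ac (60.8% of all genes) and 6 H3K27me3 (28.7%). Under the stricter threshold 9 carried H3K27ac (45.6%) and 0 H3K27me3 (4.58%), or 1 H3K27me3 without replicate 2. Cdh1, which encodes E-cadherin, stood at 7.75 and 6.17 for H3K27ac and 5.26 and 3.52 for H3K27me3, and Cldn1, a tight junction gene with H3K27me3 at 5.88 and 4.21, was the one not counted for H3K27ac (3.73 in replicate 1, no peak in replicate 2). The tight junction genes Cldn4 and Cldn7 had lower H3K27me3, at 3.89 and 3.17 and at 3.91 and 3.62, and H3K27ac at 7.11 and 7.78 and at 10.6 and 7.72. Of 10 mesenchymal genes, all 10 carried H3K27me3 and 7 H3K27ac. Under the stricter threshold these were 5 and 4, against the same shares of all genes. There the H3K27me3 count was 7 without H3K27me3 replicate 2, and the H3K27ac count was 7 without H3K27ac replicate 2. The shares need a peak in both libraries, and none is given for the counts without a replicate. Among them, Twist1, Twist2 and Prrx1, transcription factors of mesenchyme, had H3K27me3 at 13.5 and 8.67, 12.6 and 7.37, and 10.4 and 6.37, and were not counted for H3K27ac, of which the one peak was at Twist1 in replicate 1 (3.05). Vim and Cdh2, which encode vimentin and N-cadherin, had low H3K27me3 of 3.34 and 2.99 and of 4.06 and 3.07, and H3K27ac of 12.6 and 7.11 and of 11.6 and 7.13. Fn1, which encodes fibronectin, had H3K27me3 at 7.15 and 3.99 and H3K27ac at 5.21 and 4.08. Zeb1, a repressor that acts beside Snail proteins, had H3K27me3 at 6.44 and 5.36, and its H3K27ac was 11.2 and 6.31.

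Markers of cells in which the members are known to act were read in the same way. The shares of all genes are again 60.8% for H3K27ac and 28.7% for H3K27me3. Of 10 blood and mast cell genes, 5 carried H3K27ac, which is no more than the share of all genes, and 5 H3K27me3. The 5 with H3K27ac were Tal1 (8.25 and 4.62), Spi1 (7.17 and 4.41), Runx1 (4.50 and 3.25) and Gata2 (4.15 and 2.90), transcription factors of blood cells that carried H3K27me3 too, and Hdc (6.11 and 5.08), the histamine-forming enzyme of mast cells, which had H3K27me3 in replicate 1 only. The other 5 had no H3K27ac peak in either library, among them the pan-leukocyte gene Ptprc and the mast cell protease gene Cpa3, which had no H3K27me3 peak either. Of the rest, Tpsb2 carried H3K27me3 (4.48 and 3.91), Gata1 had it in replicate 1 only (3.57) and Mcpt4 in replicate 2 only (3.3). Of 7 stromal genes, 1 carried H3K27ac (Col1a1, 3.68 and 3.93; 3 had a peak without replicate 2 and 2 without replicate 1) and 5 H3K27me3, and of 7 tuft and microvillar cell genes, 4 and 6. Of 10 globose basal cell and progenitor genes all 10 carried H3K27ac and 7 H3K27me3, and of 6 horizontal basal cell genes 3 and 5. With a −log10 q of 5 or more in both libraries, H3K27ac (45.6% of all genes) was at 1 blood and mast cell gene, 0 stromal, 2 tuft and microvillar, 1 horizontal basal and 5 globose basal cell genes, and without H3K27ac replicate 2 at 4, 0, 3, 1 and 10. H3K27me3 (4.58%) was at 2, 3, 1, 1 and 1 in the same order, and without H3K27me3 replicate 2 at 2, 5, 2, 2 and 5. All shares in this paragraph need a peak in both libraries. No share of all genes is given for the counts without a replicate, so these have no background here. The part of other cells in the marks at Gfi1, Gfi1b, Snai1 or Snai2 was not tested.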

How the data were processed

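Sample titles gave each library's mark and replicate number. Tool versions are not given in the sources used here, but the submitters' processing notes name fastp, Bowtie, Picard and MACS2 and the build GRCm38 (mm10). The authors deposited 1 broad-peak list per immunoprecipitated library, with a fold enrichment (a linear ratio) of each peak, a −log10 p and −log10 q, and a whole-number score that is 10 times the −log10 q. The −log10 p and the score were not analysed further, and no input list was used here. The titles give 1 input to both H3K27me3 replicate 1 and H3K27ac replicate 2, so numbers do not pair libraries. Peak values describe and rank peaks within a list. The depth of each library is unknown.

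Gene spans came from RefSeq (GRCm38.p6). The plan named gene starts. Without strand for all genes, windows of 1 kb on each side of both gene ends were used for members and background. Overlaps (1 bp or more), covered bases and percentiles were computed in Python 3.11.15 with pandas 2.3.3, tested on simulated data. The percentile is the percent of genes with a lower value. All 9 members are named. From the lists of partner, epithelial and mesenchymal genes up to 4 with H3K27me3 and up to 4 without H3K27ac were to be named, in list order; marker genes were picked from their lists as examples. Members and lists were chosen with earlier results of these data known. Alternatives were peak thresholds, window sizes, covered length, either library and leaving out each replicate.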

Additional observations from a re-analysis of the deposited data

How the results depend on the processing

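No paired analysis was possible because the results come from no test and equal replicate numbers do not mark a shared pool. The peak threshold moved the counts most. At a −log10 q of 5 or more, members at a gene end came to 5 with H3K27me3, 2 with H3K27ac and 2 with both marks, and over the gene body and 10 kb to 5, 4 and 3. At a −log10 q of 2 or more, H3K27me3 was at 7 members at a gene end and 7 in the wider window. Members with both marks came to 3 at a gene end and 5 in the wider window, where 4687 of 21887 genes had both. No share of all genes is given for the other counts at 2 or for the wider window at 5, so these have no background here. The cause of the moves with the peak threshold was not tested. The other alternatives (either library, 500 bp covered, other windows, without each replicate) kept each count of members at the authors' threshold within 1.5 times. At a −log10 q of 5 or more, members with H3K27ac at a gene end came to 5 without H3K27ac replicate 2. Those with H3K27me3 came to 6 without H3K27me3 replicate 2. No share of all genes is given for either count. The median share of the wider window covered by H3K27me3 in both libraries was 12.4% at a −log10 q of 2 or more and 30.2% with 5 kb on each side, where less flanking sequence is counted. Per member and mark, 8 of 18 covered shares moved by more than 1 SD between replicates with 5 kb, and 4 at a −log10 q of 2 or more. Bases under both marks in all 4 libraries fell at that threshold from 5379 to 3357 bp at Insm1, from 2463 to 1417 at Scrt1, from 4304 to 0 at Snai1, from 131 to 0 at Scrt2 and from 1 to 0 at Snai3, and stayed at 712 at Snai2. These shared bases, and leaving out a replicate of the listed genes and of the stricter counts, were added after the data were seen. Unknown depth limits every statement on a missing peak.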
